A study of Mus musculus with 6 samples.

Results

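Interferon-stimulated genes are the genes that a cell turns up when an interferon reaches it, and 48 of them were followed in CD4+ T cells lacking the spliceosomal protein CD2BP2/U5-52K. They were taken by symbol from a list, not by any measured value, and all 48 were found among the 25351 identifiers with a symbol in the table of normalized counts. The list holds 4 transcription factors of the pathway, 5 RNA and DNA sensors, 4 genes of the 2-5 oligoadenylate synthetase family and 3 IFIT genes. It also holds 2 genes of the ISG15 system, 11 other antiviral effectors, 3 schlafens, Parp14 and Dtx3l. The others are 9 guanylate binding proteins (GBPs) and 5 immunity related GTPases. A further 12 identifiers of 5 of these symbols, on unplaced scaffolds, were at 0 in all libraries and were not used. Each of the 48 genes passed the filter on low values, 100 or more normalized counts on average in either condition, and was tested.

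Type I interferons act through the receptor IFNAR and the kinases JAK1 and TYK2 on a transcription factor complex that holds STAT2 and IRF9 and binds interferon-stimulated response elements (ISREs) in promoters. Interferon gamma acts through IFNGR, JAK1 and JAK2 on gamma-activated sites (GAS) and turns up, among others, IRF1, the GBPs and the immunity related GTPases. In resting T cells a low tonic signal keeps many of these genes at a basal level.

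RNA came from CD4+ T cells that had been sorted from spleens and lymph nodes of young adult male mice. The 3 cKO libraries, KO_7.8 with KO_9.10 and KO_11.12, were U5-52Kf/f CD4-Cretg, so that both Cd2bp2 alleles were floxed and Cre was driven by the Cd4 promoter, which is active from the double positive thymocyte stage on. The 3 Control libraries were not of 1 genotype: CTRL_1.2 and CTRL_3.4 were U5-52Kwt/f CD4-Cretg, with 1 floxed allele and Cre, and CTRL_5.6 was U5-52Kf/f CD4-Cre-, with both alleles floxed and no Cre. All 6 libraries thus carried at least 1 floxed allele, and 5 of the 6 carried Cre. The study compared them to learn what the loss of CD2BP2/U5-52K does to expression and splicing in peripheral T cells, and no interferon or infection was given.

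Reads in genes ranged from 69981159 to 82286366 in cKO and from 56995121 to 75606222 in Control libraries. Normalized counts of the targeted gene Cd2bp2 were 738 to 884 in cKO and 2602 to 2624 in Control libraries. T cell genes were high in all libraries: 7 of 9 T cell markers, Cd3 chains, Cd4, Lck, Cd5 and Cd28 among them, were found by symbol and summed to 384420 to 412304 in cKO and 409877 to 475261 in Control libraries. The CD8 markers Cd8a and Cd8b1 summed to 614 to 916 in cKO and 710 to 1571 in Control libraries. A pair of libraries, 1 of each condition, stood apart in erythroid markers. Erythroid markers (6 of 7 found) summed to 3085 in KO_7.8 and 4080 in CTRL_5.6, against 331 and 387 in the other cKO and 171 and 487 in the other Control libraries. Myeloid markers (14 of 14 found) summed to 70672 in KO_7.8 and 34317 in CTRL_5.6, against 23604 and 25585 in the other cKO and 24440 and 23695 in the other Control libraries. In such bulk samples fewer cells of a type and less RNA per cell cannot be told apart. The spread behind the p-values is that of these 6 libraries, which the study describes as separate mice.

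No interferon-stimulated gene was higher in cKO cells and 1, Gbp2b, was lower. With limma and a threshold of 0.05 on the adjusted p, 0 of 48 genes were higher, where 0.673% of the 11001 genes tested were, and 1 of 48 was lower, where 0.300% of all genes were. Gbp2b was also the only gene past 2-fold, a rule that 0.118% of all genes met in the lower direction. Among the 48 genes 23 had a log2 fold change above 0 and 25 below 0. Their median log2 fold change, cKO over Control, was -0.0028, and the median over all genes tested was 0.010. The median size of the change, whatever its sign, was 0.13 on the log2 scale for the 48 genes and 0.16 for all genes. Apart from Gbp2b the log2 fold changes ran from -0.40 (Ifi44) to 0.33 (Mx1), and the lowest adjusted p was 0.243.

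These values also bound what could have gone unseen. For 42 of the 48 genes the 95% interval of the fold change lay within 2-fold in either direction, and for 28 of them within 1.5-fold. The 6 genes whose interval reached past 2-fold were Gbp2b, Ifi44, Ifit3, Oasl2, Rsad2 and Trim30a, and in all but Gbp2b the interval included 0. Without adjustment, a p under 0.05 was reached by 1 gene that was higher (Gbp4) and 2 that were lower (Gbp2b and Slfn8), and by 9.25% of all genes in the higher and 7.44% in the lower direction. All 3 cKO libraries lay above all 3 Control libraries in 1 of 48 genes (Gbp4), where 12.6% of all genes showed this order, and below them in 3 (Gbp2b, Samhd1 and Slfn8), where 11.5% did. The count tests gave the same picture on the whole reads behind the normalized counts. With edgeR 0 genes were higher and 1, Gbp2b, was lower, where 0.664% and 0.355% of all genes were called in these directions. With DESeq2, which called 4.44% of all genes higher and 3.98% lower, the counts were again 0 and 1.

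**Figure D1:**
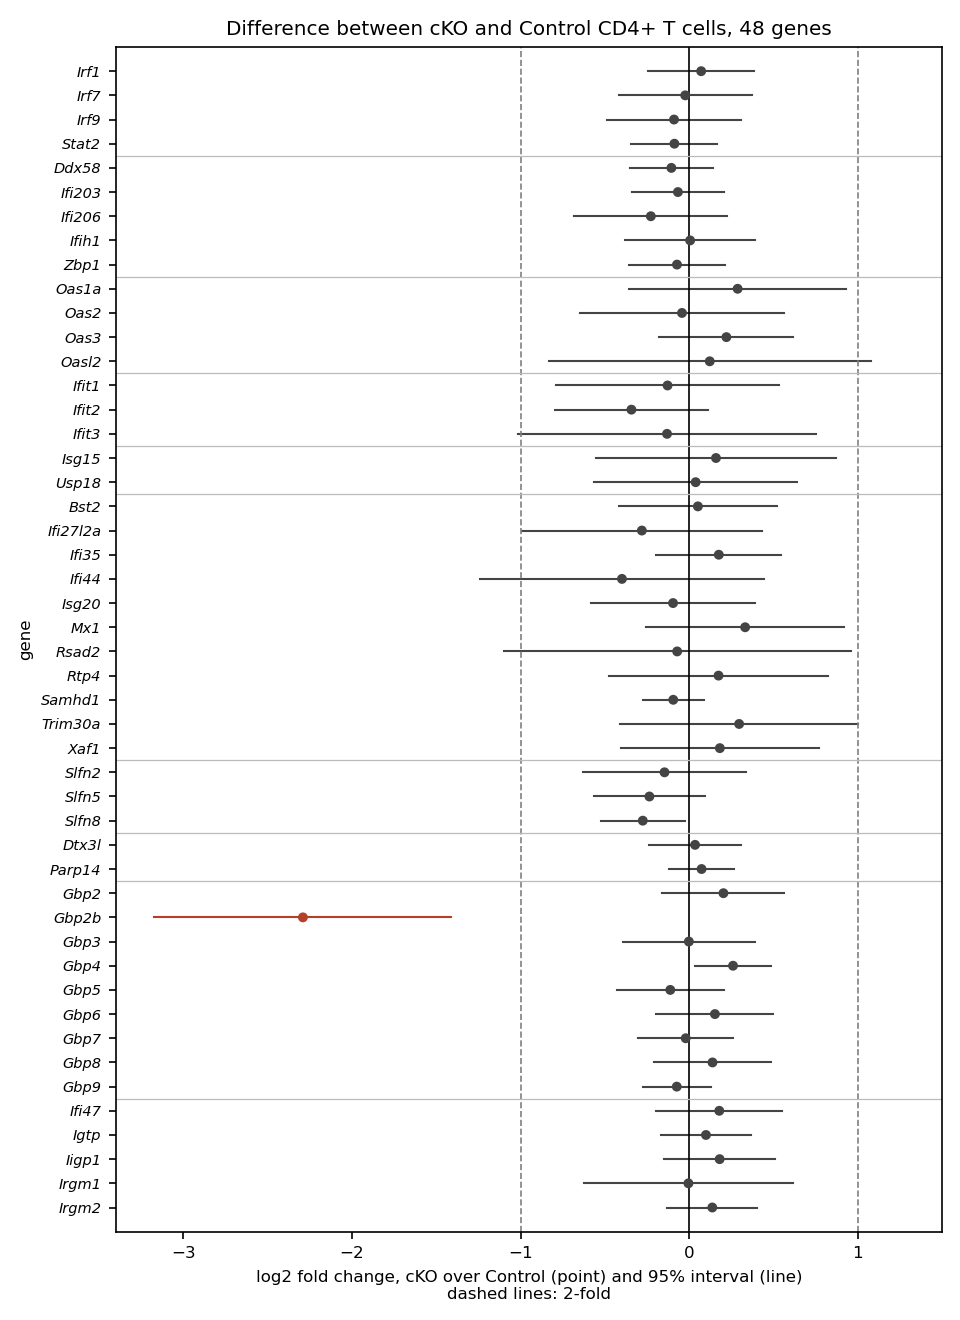
Log2 fold change of each of the 48 genes, cKO over Control, on log2(normalized count + 1), with its 95% interval from limma (n = 3 libraries each), in the order of their roles. Gbp2b at -2.29, in red, is the only gene called, and the other 47 points lie between -0.40 and 0.33.

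Gbp2b, a guanylate binding protein gene of the interferon gamma response, is at chr3:142594847-142619179 on the plus strand of GRCm38 (ENSMUSG00000040264). Normalized counts were 135, 162 and 105 in cKO (KO_7.8, KO_9.10, KO_11.12), against 741, 986 and 376 in Control (CTRL_1.2, CTRL_3.4, CTRL_5.6). All cKO libraries lay below all Control libraries, and the lowest Control value belonged to the library without Cre. The mean was 134 ± 28.5 in cKO cells and 701 ± 307 in Control cells (SD, n = 3 each), so that the cKO mean was 19.1% of the Control mean. The log2 fold change was -2.29 with a standard error of 0.37 and a 95% interval of -3.17 to -1.41 (adjusted p = 0.0497, limma). A two-sided exact permutation test of the 6 values gave p = 0.1, the smallest that 3 against 3 libraries allow. The call stood at the edge of the threshold. It was kept by edgeR (adjusted p = 0.0492), by DESeq2 (adjusted p = 1.75e-07) and, in limma, when CTRL_5.6 was left out (0.0192). It was lost without KO_7.8 (0.0661), KO_9.10 (0.140), KO_11.12 (0.171), CTRL_1.2 (0.247) or CTRL_3.4 (0.166, all adjusted p from limma), while the log2 fold change stayed between -2.68 and -1.99 when any 1 library was left out.

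The other 8 GBPs, GTPases that gather on vacuoles of intracellular bacteria and parasites, did not follow Gbp2b. Their log2 fold changes ran from -0.11 (Gbp5) to 0.26 (Gbp4), with none called. Gbp2, which starts 1423 bases after the end of Gbp2b on the same strand (chr3:142620602-142638008), had normalized counts of 12954, 10563 and 9828 in cKO (KO_7.8, KO_9.10, KO_11.12), against 8005, 10168 and 10819 in Control (CTRL_1.2, CTRL_3.4, CTRL_5.6). The 2 groups overlapped (log2 fold change 0.20, 95% interval -0.16 to 0.57). Gbp2 was also far more abundant: per kilobase of exon its mean over the 6 libraries was 4129, against 148 for Gbp2b. Gbp4 (chr5:105115767-105139586, minus strand) had 28914, 34335 and 29751 in cKO (KO_7.8, KO_9.10, KO_11.12), against 25044, 26915 and 25494 in Control (CTRL_1.2, CTRL_3.4, CTRL_5.6). Every cKO value lay above every Control value, but the difference did not pass the adjusted test (log2 fold change 0.26, standard error 0.09, adjusted p = 0.243, limma). GBP genes lie in 2 clusters of similar copies, on chromosomes 3 and 5, and the annotated spans of Gbp4, Gbp8 and Gbp9 overlap, so that reads shared between copies make each single value uncertain.

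**Figure D2:**
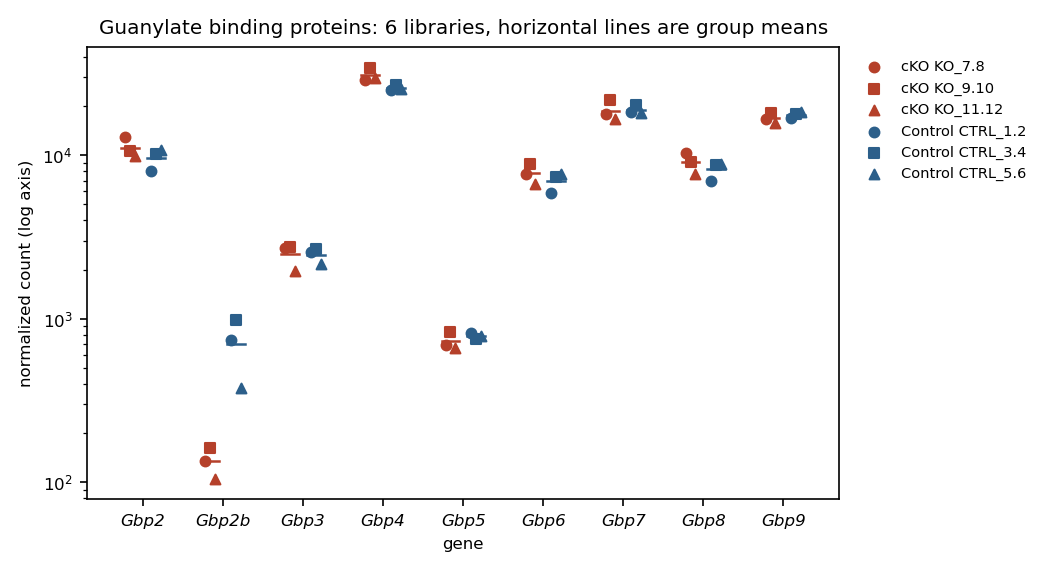
Normalized counts of the 9 guanylate binding protein genes in each library on a log axis, cKO left and Control right in each pair, with horizontal lines at the group means. Gbp2b is the only one of them in which all cKO points (105 to 162) lie below all Control points (376 to 986), and Gbp4 the only one in which they all lie above.

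The promoters of Gbp2b and Gbp2 are shown because only the first gene was lower, beside that of Isg15, a gene of the type I response. Each line gives the 250 bases before the annotated start, from RefSeq on GRCm38.p6, with matches to the ISRE-like motif GAAANNGAAA on either strand in capitals. The Gbp2b window is chr3:142594597-142594846 (plus strand), the Gbp2 window chr3:142620413-142620662 (plus strand) and the Isg15 window chr4:156200819-156201068 (minus strand).
Gbp2b: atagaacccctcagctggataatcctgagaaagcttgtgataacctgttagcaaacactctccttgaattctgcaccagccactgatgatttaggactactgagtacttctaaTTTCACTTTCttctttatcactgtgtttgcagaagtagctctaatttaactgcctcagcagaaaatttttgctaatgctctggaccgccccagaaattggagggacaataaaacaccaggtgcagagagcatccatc
Gbp2: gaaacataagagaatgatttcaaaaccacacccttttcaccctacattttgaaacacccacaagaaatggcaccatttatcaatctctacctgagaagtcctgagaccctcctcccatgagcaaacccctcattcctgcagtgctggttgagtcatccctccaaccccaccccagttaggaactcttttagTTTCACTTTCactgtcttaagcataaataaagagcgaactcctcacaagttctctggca
Isg15: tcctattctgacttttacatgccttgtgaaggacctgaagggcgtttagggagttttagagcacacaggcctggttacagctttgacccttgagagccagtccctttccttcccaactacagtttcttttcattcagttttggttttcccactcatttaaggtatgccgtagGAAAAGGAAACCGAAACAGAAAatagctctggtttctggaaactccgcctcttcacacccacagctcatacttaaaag
Gbp2b and Gbp2 each held 1 match, spelled with the same 10 letters in both, and Isg15 held 3 that overlap. Promoters were found for 36 of the 48 genes (45 promoters), and 22 of the 45 held the ISRE-like motif (48.9%), against 978 of all 32851 promoters (2.98%). The GAS-like motif TTCNNNGAA, searched on both strands, was in 10 of the 45 (22.2%) and in 2306 of all promoters (7.02%). These shares describe the letters in the windows and not binding.

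The 4 transcription factors did not differ beyond the spread. Stat2, a part of the complex that acts in the type I response, had normalized counts of 8219, 8617 and 8429 in cKO (KO_7.8, KO_9.10, KO_11.12), against 8700, 10268 and 8012 in Control (CTRL_1.2, CTRL_3.4, CTRL_5.6) (log2 fold change -0.09, standard error 0.11). Irf9, the member of that complex that binds ISREs, had 13924, 11640 and 11493 in the cKO libraries, against 10647, 12887 and 16353 in the Control libraries (-0.09, standard error 0.17). Irf1, a primary target of interferon gamma, had 6767, 6965 and 6953 in cKO, against 5527, 6526 and 7831 in Control libraries (0.07, standard error 0.13). Its cKO values lay close together inside the Control range. Irf7, the factor that amplifies type I interferon production, had 6445, 5502 and 5482 in cKO, against 4910, 5538 and 7498 in Control libraries (-0.02, standard error 0.17). In Irf1, Irf7 and Irf9, but not in Stat2, CTRL_5.6 was the highest of the 6 libraries.

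None of the other genes among the 10 with the largest absolute log2 fold change was called. Ifi44, an antiviral gene, had normalized counts of 326, 247 and 207 in cKO (KO_7.8, KO_9.10, KO_11.12), against 266, 252 and 571 in Control (CTRL_1.2, CTRL_3.4, CTRL_5.6) (log2 fold change -0.40, adjusted p = 0.636, limma). Ifit2, which binds viral RNA, had 5440, 3641 and 3880 in cKO, against 4633, 5163 and 6547 in Control libraries (-0.34, adjusted p = 0.426). Mx1, a dynamin-like antiviral GTPase, had 399, 372 and 283 in cKO, against 267, 216 and 365 in Control libraries (0.33, adjusted p = 0.561). In each of these 3 genes the groups overlapped.
Trim30a, a tripartite motif gene of mice, had 6023, 9713 and 4188 in cKO, against 4554, 4660 and 6228 in Control libraries (0.30, adjusted p = 0.686), and its rank among the genes rested on KO_9.10. Oas1a, which makes the messenger that activates RNase L, had 3342, 1989 and 1615 in cKO, against 1544, 1779 and 2149 in Control libraries (0.29, adjusted p = 0.662), with KO_7.8 the highest. Ifi27l2a had 11033, 6472 and 6870 in cKO, against 7660, 7931 and 14467 in Control libraries (-0.28, adjusted p = 0.711), with CTRL_5.6 and KO_7.8 above the other 4.

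In the 3 schlafens, as in the 3 IFIT genes, all members had lower means in cKO cells, and none was called. CTRL_5.6, the Control without Cre, was the highest of the 6 libraries in each of them. In Ifit1, Ifit3 and Slfn2 both other Control libraries lay below the cKO mean (6638, 4056 and 25230). In Ifit2, Slfn5 and Slfn8 both lay above it. Slfn8 (chr11:83002158-83020810) had normalized counts of 9222, 9657 and 8927 in cKO (KO_7.8, KO_9.10, KO_11.12), against 10435, 10499 and 12852 in Control (CTRL_1.2, CTRL_3.4, CTRL_5.6), with no overlap (log2 fold change -0.27, standard error 0.11, adjusted p = 0.264, limma). Slfn5 had 2823, 2450 and 2641 in cKO, against 2843, 2794 and 3754 in Control libraries (-0.24, adjusted p = 0.452). Slfn2, which maintains T cell quiescence in mice, had 30697, 20917 and 24075 in cKO, against 24485, 23807 and 35927 in Control libraries (-0.15, 95% interval -0.63 to 0.34). It was among the most abundant of the 48 genes, with a mean of 16017 per kilobase of exon over the 6 libraries, second to Ifi27l2a with 19594. The lowest per kilobase was Ifi44 with 50.8.

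Among the RNA and DNA sensors, log2 fold changes ran from -0.23 (Ifi206, a p200 family gene) to 0.01 (Ifih1, which encodes the RNA sensor MDA5), with none called. Ddx58, which encodes RIG-I, and Zbp1, a sensor of Z-form nucleic acids, had -0.11 (95% interval -0.35 to 0.14) and -0.07 (-0.36 to 0.21). The 5 immunity related GTPases, which act on pathogen vacuoles beside the GBPs, had log2 fold changes from -0.00 (Irgm1) to 0.18 (Iigp1 and Ifi47). Igtp, the most abundant of them at 14472 per kilobase of exon, had 0.10 (95% interval -0.17 to 0.37), and since its annotated span overlaps that of Irgm2 their reads may be shared. Parp14 and Dtx3l, an ADP-ribosyltransferase and a ubiquitin ligase, had narrow intervals, of -0.12 to 0.27 and -0.24 to 0.31. Samhd1, which hydrolyses deoxynucleotides, was lower in all cKO libraries by a small amount, with 33475, 33622 and 32524 in cKO (KO_7.8, KO_9.10, KO_11.12), against 34294, 37029 and 35061 in Control (CTRL_1.2, CTRL_3.4, CTRL_5.6) (log2 fold change -0.09, adjusted p = 0.599, limma).

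Libraries of the same condition differed in the level of these genes. CTRL_5.6, the Control without Cre, lay above both other Control libraries in 36 of 48 genes (75.0%), where it did so in 43.4% of all genes tested. KO_7.8 lay above both other cKO libraries in 29 of 48 (60.4%), and in 44.7% of all genes. In 25 of 48 genes (52.1%) these libraries were both above the other 4, and in 18.7% of all genes. CTRL_1.2 was the lowest of the 6 in 28 of 48 genes (58.3%), and in 18.1% of all genes. Measured as the median over the 48 genes of the log2 distance to the Control mean, the cKO libraries stood at 0.15 (KO_7.8), -0.04 (KO_9.10) and -0.14 (KO_11.12), against -0.22 (CTRL_1.2), -0.04 (CTRL_3.4) and 0.22 (CTRL_5.6) for the Control libraries. The Control libraries alone thus spanned the range of the cKO libraries.

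By role, the 25 genes in which CTRL_5.6 and KO_7.8 stood above the other 4 held all 3 IFIT genes, both genes of the ISG15 system, 3 of 4 OAS family genes, 8 of 11 other antiviral effectors, 3 of 5 sensors, 2 of 4 transcription factors, 2 of 5 immunity related GTPases, 1 of 3 schlafens, 1 of 9 GBPs and neither Parp14 nor Dtx3l. Differences between these roles were not tested. Of the medians by role, that of the 3 IFIT genes spanned the widest range among the Control libraries, with a distance of 0.64 in CTRL_5.6 and of -0.47 in CTRL_1.2. Ifit1 had normalized counts of 7619, 6632 and 5662 in cKO (KO_7.8, KO_9.10, KO_11.12), against 5205, 6371 and 11257 in Control (CTRL_1.2, CTRL_3.4, CTRL_5.6). Ifit3 had 5284, 3610 and 3274 in cKO, against 2962, 3537 and 7829 in Control libraries. Rsad2, which encodes viperin, had 617, 357 and 347 in cKO, against 284, 367 and 847 in Control libraries, and CTRL_5.6 was 2.60 times the mean of the other Control libraries.
Isg15, the ubiquitin-like modifier, had 2967, 1908 and 1766 in cKO, against 1432, 1738 and 2884 in Control libraries. Usp18, the protease that removes ISG15, had 5627, 4432 and 3905 in cKO, against 3554, 3838 and 6584 in Control libraries. In Oasl2, as in Isg15, KO_7.8 was the highest library. Oasl2 had 2266, 907 and 940 in cKO, against 889, 1004 and 1679 in Control libraries. In all 6 of these genes CTRL_5.6 and KO_7.8 stood above the other 4 libraries.
The 9 GBPs had a median distance of 0.15 in KO_7.8, against -0.01 in CTRL_5.6 and 0.09 in CTRL_3.4, and the GBP among the 25 genes was Gbp2. The 5 immunity related GTPases had a median distance of 0.15 in KO_7.8, against 0.11 in CTRL_5.6 and -0.20 in CTRL_1.2, and those among the 25 were Ifi47 and Irgm1. The same 2 libraries had the highest sums of erythroid and myeloid markers, as given above. In CTRL_5.6 most of the myeloid sum was Ctss, and its median myeloid marker distance (0.59) was below that of KO_11.12 (0.68). Dendritic cell markers summed to 4216 in CTRL_5.6, below all cKO libraries (4876 to 11449). The part of other cells in the levels of interferon-stimulated genes was not tested. Since the library without Cre was 1 mouse, its genotype and its other differences cannot be told apart.

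**Figure D3:**
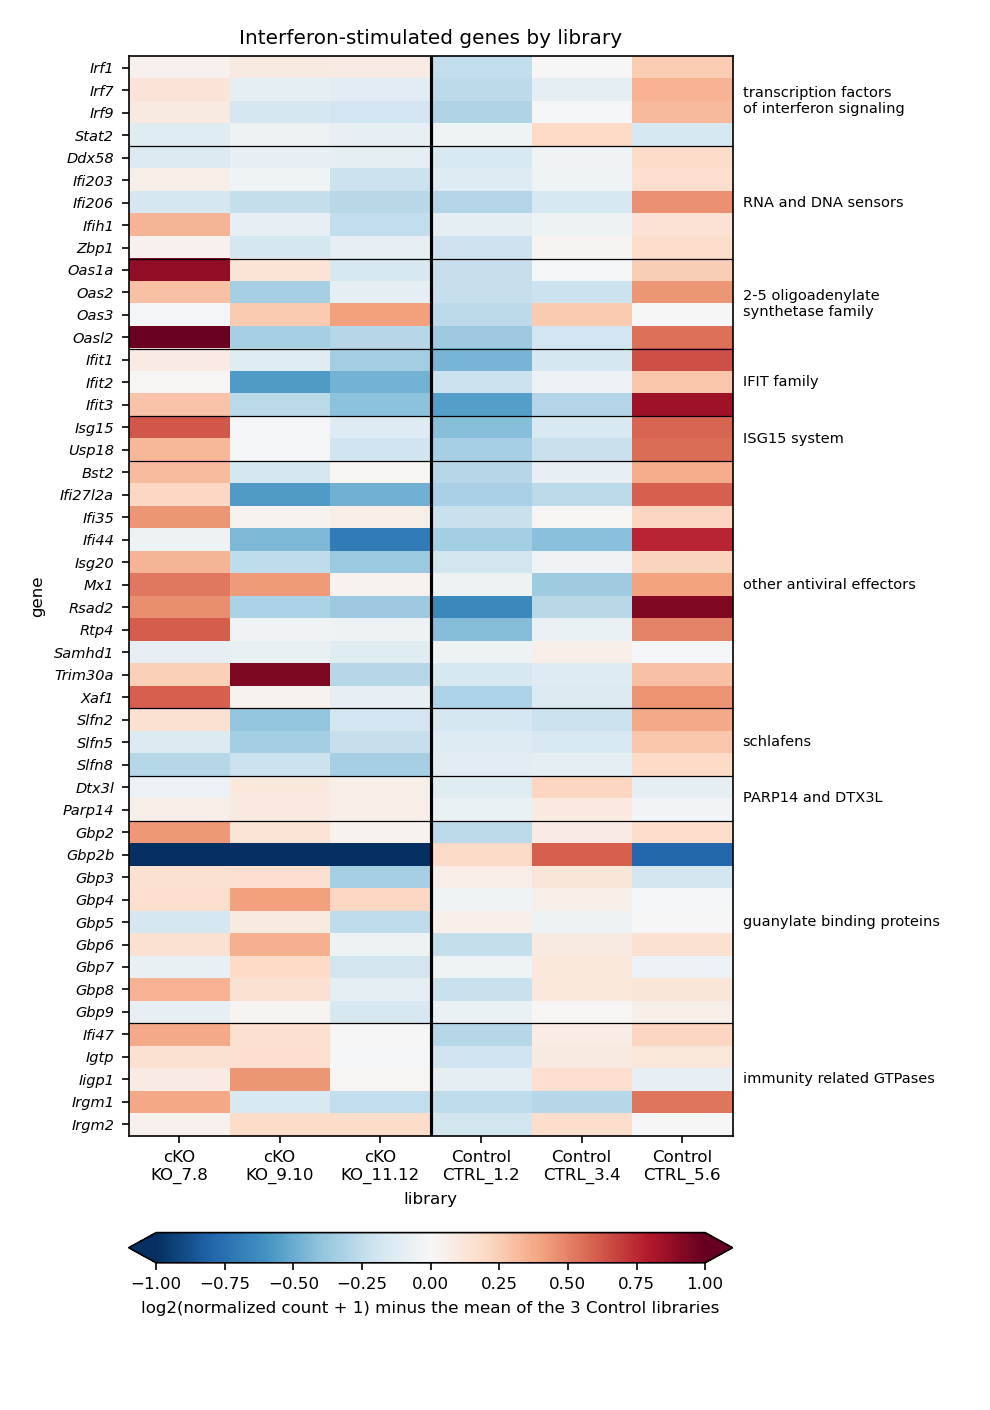
Level of each gene in each library as log2(normalized count + 1) minus the Control mean, red above and blue below, cKO columns left of the line and Control columns right, with colours clipped at 1 in either direction. The columns KO_7.8 and CTRL_5.6 are the reddest, and only the row of Gbp2b is blue in all cKO columns beyond the scale.

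**Figure D4:**
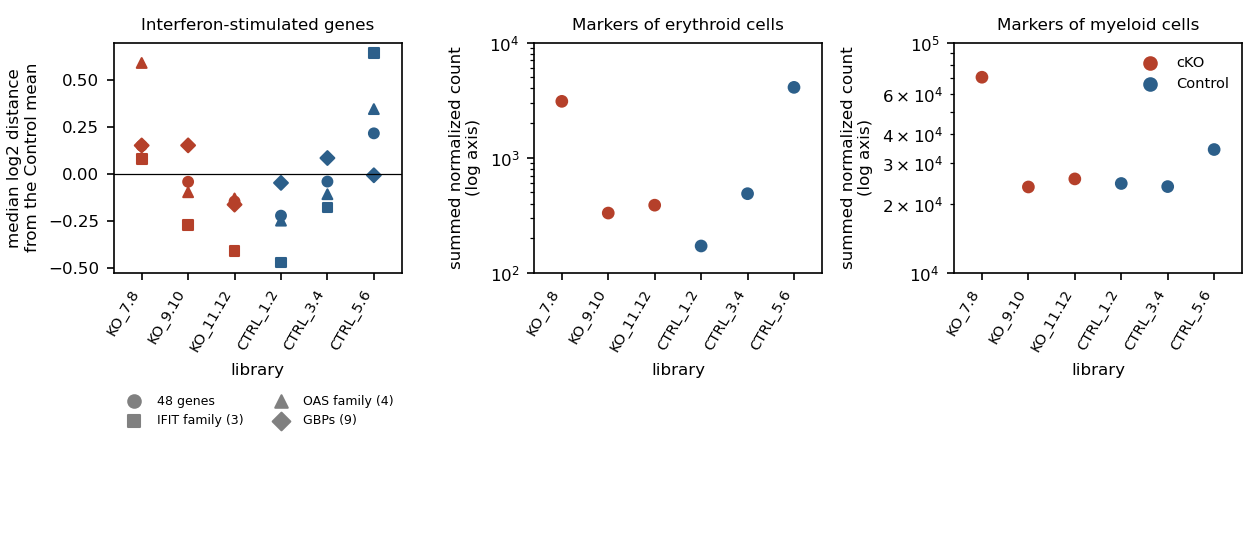
Left, median log2 distance from the Control mean in each library for all 48 genes, the 3 IFIT genes, the 4 OAS family genes and the 9 GBPs. Middle and right, summed normalized counts of erythroid and myeloid markers on log axes, highest in KO_7.8 (3085 and 70672) and CTRL_5.6 (4080 and 34317). Of the myeloid sum in CTRL_5.6, 25707 was Ctss.

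Without both KO_7.8 and CTRL_5.6, which leaves 2 cKO libraries against the 2 Control libraries of 1 genotype, 0 of 48 genes were higher and 2 were lower, Gbp2b (log2 fold change -2.70, adjusted p = 3.98e-06, limma) and Ifit2 (-0.38, adjusted p = 0.0184). The median log2 fold change of the 48 genes was then 0.07. That fit called many more of all genes, 865 higher (7.89%) and 620 lower (5.66%). The libraries left out stood apart in many of the same 48 genes, and leaving them out narrows the spread within each condition. The p-values of that fit are therefore no separate support for its calls.

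The rest of the pathway was followed in 136 genes, of which 123 passed the filter on low values, and 0 were higher and 1 lower (0.813%) in cKO cells, where 0.673% and 0.300% of all genes tested were. The gene called was H2-Q7, a nonclassical MHC class I gene that interferons raise. Its normalized counts were 10407, 12222 and 10230 in cKO (KO_7.8, KO_9.10, KO_11.12), against 18790, 17955 and 19163 in Control (CTRL_1.2, CTRL_3.4, CTRL_5.6) (log2 fold change -0.77, standard error 0.10, adjusted p = 0.0218, limma). MHC class I genes of this cluster are close copies, so that its value is uncertain. The call was lost without KO_11.12 (adjusted p = 0.116), CTRL_1.2 (0.146), CTRL_3.4 (0.10) or CTRL_5.6 (0.0807), with log2 fold changes of -0.80 to -0.72. Among 73 other interferon-stimulated genes tested none was called, and their median log2 fold change was 0.03. At an unadjusted p under 0.05, 13 of the 123 genes were higher (10.6%) and 11 lower (8.94%), near the shares of all genes, 9.25% and 7.44%. The pathway lists were not alike in this. Among the 13 genes of interferon-induced antigen presentation, H2-Q7 among them, 4 were lower and 0 higher at that threshold. Differences between the lists were not tested.

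The receptors, Jak1 and Tyk2, which act upstream of the 48 genes, were not called either. Ifngr1, a chain of the interferon gamma receptor, had normalized counts of 38794, 35256 and 29031 in cKO (KO_7.8, KO_9.10, KO_11.12), against 20050, 22982 and 20470 in Control (CTRL_1.2, CTRL_3.4, CTRL_5.6), with no overlap (log2 fold change 0.69, standard error 0.13, adjusted p = 0.067, limma). It was the nearest to a call among these genes and was called by DESeq2 (adjusted p = 8.82e-05). Ifnar1 (0.19), Ifnar2 (0.06), Ifngr2 (-0.02), Jak1 (-0.17) and Tyk2 (-0.02) had adjusted p of 0.438 to 0.986. Of 7 interferon genes only Ifng, the gene of interferon gamma, passed the filter, with 218, 286 and 210 in cKO, against 187, 209 and 162 in Control libraries (0.34, adjusted p = 0.483). Ifnb1, Ifna1, Ifna2, Ifna4, Ifnl2 and Ifnl3 were at 0 in all 6 libraries.

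Markers of T cell states and of other cells differed in level beside these genes. Of 11 memory and effector T cell markers tested, S100a6, Anxa2, Id2 and Lgals1 were higher in cKO cells and none was lower, with a median log2 fold change of 0.66, and of 9 naive T cell markers none was called (median -0.27). The 12 memory and effector markers summed to 180959 to 189489 in cKO and 100686 to 130371 in Control libraries. CTRL_5.6 had the lowest of these sums and the highest sum of the naive markers (493218). It also had the lowest sum of the 4 regulatory T cell markers. That sum was 23399, against 53004 and 45179 in the other Control and 35063 to 56504 in the cKO libraries. B cell markers had a median log2 fold change of -1.01 (9 of 11 tested, none called) and summed to 4794 to 9047 in cKO and 10606 to 14168 in Control libraries. The NK cell markers had a median of 1.06 (5 of 6 tested, none called), with sums of 20607 to 25076 in cKO and 9336 to 15093 in Control libraries. Most of each sum was Nkg7, with 17344 to 20875 in cKO and 7082 to 12454 in Control libraries. Ncr1 and Klre1 were also higher in all cKO libraries. Eomes (213 to 263 in cKO, 240 to 373 in Control libraries) and the scarce Klra8 went the other way. The dendritic cell markers had a median of 0.91 (6 of 7 tested, Zbtb46 higher), with sums of 4876 to 11449 in cKO and 3337 to 4216 in Control libraries, and the myeloid markers 1.2 (11 of 14 tested, none called). None of the defining markers found of these lists was at 0 in all libraries. The part of these shifts in the values of the 48 genes was not tested.

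Splicing was changed in 5 of the interferon-stimulated genes. The deposited tables of splicing events, which give 3 values for each condition without library names, held 232 events in 41 of the 48 genes, and 219 events in 39 genes reached 20 reads on average in each condition and were tested. An event was called at an FDR under 0.01 with a difference of at least 10 points in inclusion, the percentage of reads, corrected for length, that carry the longer form. By this rule 6 of the 219 events were called (2.74%), in Gbp4 (2 events), Samhd1, Irf7, Xaf1 and Ifi206, where 0.465% of all 55912 events were. Of skipped exons (SE) 4 of 157 were called, where 0.495% of all were. Of alternative 3′ splice sites (A3SS) 1 of 9 was called, where 0.584% of all were, and of alternative 5′ splice sites (A5SS) 1 of 3, where 1.08% of all were. None of 41 mutually exclusive exon pairs (MXE) or of 9 retained introns (RI) was called, where 0.250% and 0.181% of all were. Most events hardly moved: 200 of the 219 differed by less than 5 points, and the median size was 0.59 points. Gbp2b had no event that could be tested, nor had Ifit1, Ifit3, Isg15, Oas2, Oas3, Rsad2, Rtp4 and Slfn2.

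**Figure D5:**
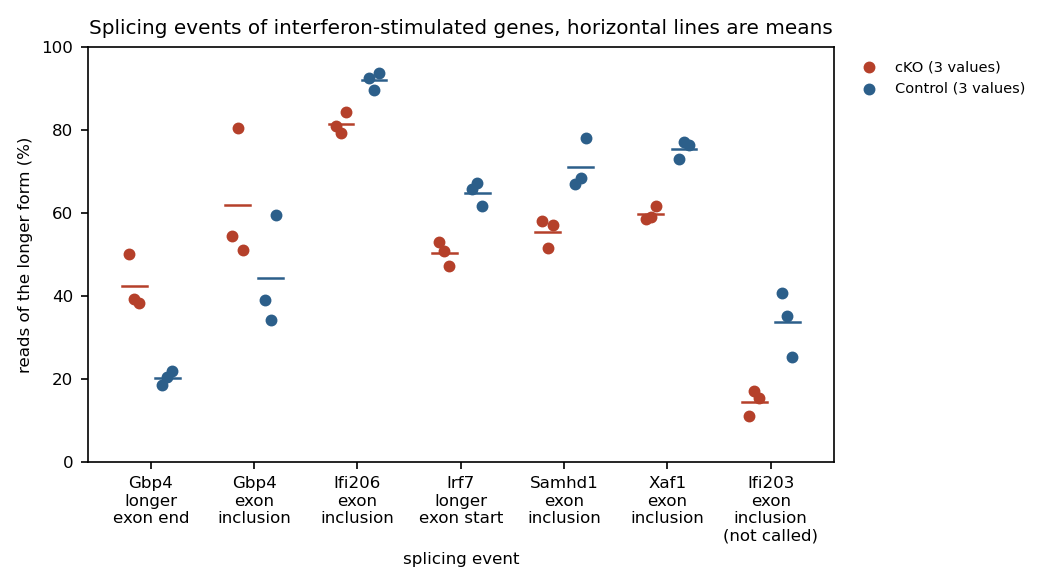
Percentage of reads that carry the longer form in each of the 3 cKO and 3 Control values for the 6 called events and for an exon of Ifi203 that was not called, with horizontal lines at the means. The cKO values lie below the Control values in Ifi206, Irf7, Samhd1, Xaf1 and Ifi203 and above them at the exon end of Gbp4, and they overlap in the skipped exon of Gbp4.

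The largest difference was at the end of exon 2 of Gbp4, where the cKO cells used the downstream 5′ splice site more. The longer form was 50.04%, 39.1% and 38.3% of reads in the 3 cKO values, against 18.6%, 20.5% and 21.8% in the 3 Control values, with no overlap. Behind them stood 347, 528 and 417 reads of the longer and 290, 687 and 562 of the shorter form in cKO, against 162, 190 and 145 of the longer and 594, 618 and 435 of the shorter form in Control. The mean was 42.5% ± 6.54 in cKO cells and 20.3% ± 1.62 in Control cells (SD, n = 3 each), a difference of 22.2 points (FDR = 5.60e-16, quasi-binomial model with limma-moderated dispersion). The call held with any 1 of the 6 values left out. The coding bases of the exon, chr5:105136810-105137021 on the minus strand of GRCm38, are shown from the GENCODE M21 transcript Gbp4-201, with the 29 bases that only the longer form keeps in capitals.
Gbp4: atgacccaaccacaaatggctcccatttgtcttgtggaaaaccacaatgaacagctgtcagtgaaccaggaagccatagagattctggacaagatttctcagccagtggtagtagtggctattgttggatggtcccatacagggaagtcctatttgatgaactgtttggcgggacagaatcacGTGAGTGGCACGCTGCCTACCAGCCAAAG
The capitals open with GT, the letters at which introns begin, and their length is not a multiple of 3. In the annotation the shorter form occurs in 1 transcript, Gbp4-202, of the class that is a target of nonsense-mediated decay, and the longer form in Gbp4-201 and Gbp4-204, which are protein coding.

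The same exon of Gbp4 (chr5:105136810-105137045, 236 bases) was also counted as a skipped exon, with inclusion of 54.4%, 80.5% and 51.0% in cKO, against 38.9%, 34.2% and 59.5% in Control. The means were 62.0% ± 16.1 in cKO cells and 44.2% ± 13.5 in Control cells (SD, n = 3 each), a difference of 17.8 points (FDR = 0.00137). This event is weaker than the first, since the groups overlapped and the call was lost without Control value 1 (FDR = 0.0212), Control value 2 (0.0688) or cKO value 2 (8.50 points, 0.0816). Both events share reads, and the close copies Gbp8 and Gbp9 overlap the locus.

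In Samhd1 an exon near the end of the gene (chr2:157101321-157101443, minus strand, 123 bases) was included less in cKO cells. Inclusion was 58.0%, 51.5% and 57.1% in the 3 cKO values, against 67.1%, 68.3% and 78.0% in the 3 Control values, with no overlap. It averaged 55.5% ± 3.52 in cKO and 71.1% ± 6.003 in Control (SD, n = 3 each), a difference of -15.6 points (FDR = 4.22e-10), and the call held with any 1 value left out. The exon is exon 16 of 17 of Samhd1-206 and is absent from Samhd1-201. Of its 123 bases the 81 that are coding in Samhd1-206 (chr2:157101363-157101443) are shown. The coding sequence of that transcript ends inside the exon.
Samhd1: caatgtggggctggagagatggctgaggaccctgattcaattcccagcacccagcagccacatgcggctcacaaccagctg
An MXE event of Samhd1 also had an FDR under 0.01, with 66.6% in cKO and 59.8% in Control (6.83 points), under the 10 points required.

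Irf7 shifted at a 3′ splice site. The longer form, with 96 more bases at the start of exon 6 of Irf7-201 (chr7:141264560-141264655, minus strand), made up 52.9%, 50.9% and 47.1% of reads in cKO, against 65.8%, 67.1% and 61.7% in Control, with no overlap. It averaged 50.3% ± 2.95 in cKO and 64.9% ± 2.84 in Control (SD, n = 3 each), a difference of -14.5 points (FDR = 8.76e-06). The call held with any 1 value left out. The 96 bases, a multiple of 3 and coding in Irf7-201 and Irf7-202, are absent from the protein-coding transcript Irf7-203.
Irf7: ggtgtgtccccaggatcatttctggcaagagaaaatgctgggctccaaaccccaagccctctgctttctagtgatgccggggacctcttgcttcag

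Xaf1, an interferon-induced binding partner of the apoptosis inhibitor XIAP, had an exon of 89 bases (chr11:72306564-72306652, plus strand, exon 4 of 6 of Xaf1-204) included in 58.5%, 59.1% and 61.8% of cKO reads, against 73.0%, 77.1% and 76.3% of Control reads. The means were 59.8% ± 1.73 in cKO and 75.5% ± 2.17 in Control (SD, n = 3 each), a difference of -15.7 points (FDR = 0.000631). Without Control value 3 the FDR was 0.0103, just past the threshold. The exon is coding in Xaf1-204 and absent from the protein-coding Xaf1-205 and Xaf1-202, and its length is not a multiple of 3.
Xaf1: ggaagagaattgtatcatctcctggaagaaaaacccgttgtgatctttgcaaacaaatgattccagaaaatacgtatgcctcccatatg

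Ifi206, a p200 family gene, had an exon of 107 bases (chr1:173485529-173485635, minus strand, exon 3 of 7 of Ifi206-201) included in 80.9%, 79.2% and 84.2% of cKO reads, against 92.6%, 89.6% and 93.7% of Control reads. The means were 81.5% ± 2.54 in cKO and 92.0% ± 2.12 in Control (SD, n = 3 each), a difference of -10.5 points (FDR = 2.89e-05). The difference was just under 10 points without cKO value 2 (-9.38) or Control value 3 (-9.64). No annotated transcript joins the flanking exons of this event without the exon between them, and p200 genes are close copies whose reads may be shared.
Ifi206: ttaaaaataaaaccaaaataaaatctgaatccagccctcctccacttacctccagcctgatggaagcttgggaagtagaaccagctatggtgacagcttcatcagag
Ifi203, a gene of the same family, had an exon of 1242 bases (chr1:173928275-173929516) at 10.98%, 17.0% and 15.3% in cKO, against 40.7%, 35.1% and 25.3% in Control, with no overlap. At -19.2 points it was the second largest difference among the 219 events, but its FDR of 0.0176 missed the threshold.

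The events called in Samhd1, Irf7, Xaf1 and Ifi206 thus all went toward the shorter form in cKO cells, and both in Gbp4 toward the longer form. Over all genes 159 of the 194 skipped exons and 15 of the 18 A3SS events called went toward the shorter form in cKO cells. Of the 20 A5SS events called, 5 did. None of the 5 genes with a called event was called for its level: log2 fold changes were 0.26 for Gbp4, -0.09 for Samhd1, -0.02 for Irf7, 0.18 for Xaf1 and -0.23 for Ifi206, and all adjusted p from limma were at least 0.243.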

How the data were processed

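The authors sequenced RNA of sorted CD4+ T cells from 3 cKO and 3 Control mice. They trimmed reads with cutadapt, aligned them with STAR to GRCm38, also called mm10, and counted them per gene with featureCounts. For expression, the deposited unit is a signal: each gene's read count in a library over that library's DESeq2 size factor. Multiplied back they gave whole reads within 0.01 for all values. The deposited rMATS tables hold, for each event, the reads of the included and of the skipped form (junction and exon reads together), as 3 unnamed values a condition, of which the first set was taken as Control from the study's event list, in which its skipped exon counts are named. For the other event classes the same order was assumed, because their values keep the same relative depths. The direction of the A5SS event of Gbp4 and of the A3SS event of Irf7 rests on that assumption. A deposited DESeq2 comparison holds fold changes, standard errors and p-values, shrunk with apeglm, and was not used, nor were the p-values and FDR of rMATS. All per-sample columns were used. Versions of the upstream tools are not in the labels used here, and whether counting used strand was not examined.

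Of 56246 identifiers, 25351 had a symbol, and the 11001 that averaged 100 or more in cKO or in Control entered the fit on log2(normalized count + 1) with limma 3.58.1 in R 4.3.3 (trend, two-sided, Benjamini-Hochberg over all genes tested, threshold 0.05). This scale understates folds of low genes. edgeR 4.0.16 and DESeq2 1.42.0 were run on the whole reads of the same genes. Splicing events that averaged 20 reads or more in each condition were fitted with a quasi-binomial model of included against skipped reads. Dispersions were moderated with limma, with the prior from events averaging 5 reads or more of their rarer form, and p-values were adjusted within each class (FDR 0.01, 10 points). That prior was taken over from earlier work on these tables in which results had been seen. Both tests were tested on simulated data. For splicing, the simulation and not the test was altered after a first run, which recovered none of the changed events. The altered run recovered a minority of them, so that changed events can go uncalled.

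The 48 genes, the pathway and marker lists and the tests were chosen with earlier results of these data known. Values per library are given for genes past the threshold, for the 10 with the largest absolute log2 fold change and for Stat2, Irf9, Irf1 and Irf7. Of other pathway genes they are given for those called, at most 8, and for Ifng, the receptors, Jak1 and Tyk2, and of events for those called and the 5 with the largest difference. Gbp2, Ifit1, Ifit3, Rsad2, Isg15, Usp18, Oasl2, Slfn2 and Samhd1 were added after their values were seen. Some genes of these lists are not reported here. Positions and exons came from GENCODE M21 on GRCm38, promoters from RefSeq on GRCm38.p6, and levels per kilobase divide by the length of all annotated exons. No 2 libraries of a condition agreed within sampling noise (chi-square per gene of at least 16.4). Scripts used Python 3.11.15 with numpy 2.4.6, pandas 2.3.3, scipy 1.17.1 and matplotlib 3.10.9.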

Additional observations from a re-analysis of the deposited data

How the results depend on the processing

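The count of 0 interferon-stimulated genes higher in cKO cells was the same under every alternative run, and the median log2 fold change of the 48 genes stayed between -0.09 and 0.15, within the spread between libraries. The count of 1 lower gene was at the limit of the test: it was 0 with a pseudocount of 10 (adjusted p of Gbp2b 0.0507), with the filter of 100 applied to each condition (0.0529), with TMM factors (0.0528) and with robust variances (0.0557, all limma), 0 to 1 when 1 library was left out, and 2 without KO_7.8 and CTRL_5.6. The cause was not tested. Of the 123 other pathway genes DESeq2 called 9 higher and 8 lower, both larger shares than among all genes (4.44% and 3.98%). Without KO_7.8 and CTRL_5.6, 10 were higher and 5 lower (7.89% and 5.66% of all genes). When 1 library was left out, 0 to 2 were higher and 0 to 1 lower. Of splicing events in the 48 genes, 6 were called with a minimum of 10 or 50 reads, 7 with the dispersion prior over all events, which added Ifi203 (FDR = 0.000274), 7 with a difference of 5 points, and 4 to 7 when 1 value was left out. Over all genes limma called 74 higher and 33 lower, and DESeq2 488 and 438. No paired analysis was possible because the labels give the cKO and Control libraries no shared numbers. With 3 libraries a group, differences of 2-fold and more could go uncalled in genes that vary as Rsad2 and Ifi44 do, whose intervals reached past 2-fold.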
